A study of Mus musculus with 55 samples.

Results

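Accessible regions gained in Setd8-LKO liver were defined as the regions of the Setd8-LKO ATAC-seq list that share no base with any region of the wild type list. By this rule 3358 of 23386 regions were gained (14.4%, 95% Clopper-Pearson interval 13.9 to 14.8). The other 20028 regions overlapped a wild type region by at least 1 bp and are called kept, and 7368 of the 27307 wild type regions that met no Setd8-LKO region are called lost (27%, 26.5 to 27.5). The ATAC lists alone chose the members, so their number, size and strength are descriptions and were not tested. Intervals of shares here cover counting error only. A region counts as gained where no WT region passed the cutoff of the authors' caller. WT reads in gained regions were not examined, so such a region may hold WT signal below that cutoff. The read depth behind each ATAC-seq list is not known here.

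Setd8-LKO mice carry 2 floxed alleles of Setd8 (Setd8 lox/lox), deleted by Cre under the albumin promoter. The paper describes the inactivation as specific to hepatocytes. The animals were male, 45 to 50 days old. The Setd8-LKO mice received 3 mg/kg TCPOBOP 24 h before the livers were taken, whereas the wild type (WT) mice of the chromatin assays were untreated, so genotype and treatment cannot be told apart in any list used here. ATAC-seq was made on liver nuclei of 5 Setd8-LKO and 3 WT mice, and each condition has 1 pooled list, so there is no replicate error for a region. H3K27ac (3 and 3 mice), CTCF (2 and 4), Smc3 (2 and 3), H4K20Me3 (2 and 2) and Lamin A/C (4 and 4 libraries) were profiled in Setd8-LKO + TCPOBOP and untreated WT liver, and RNA-seq covered these conditions (n = 4 and n = 5) and TCPOBOP-treated WT mice (n = 5). Kmt5a, the gene of Setd8, had 563 to 761 normalised counts in untreated WT and 1313 to 1465 in libraries labelled Setd8-LKO (log2 fold change 1.08, SE 0.14, adjusted p = 0.00045, edgeR), and no gained region was linked to it. Counts over the whole gene do not check the deletion of an exon, and libraries are therefore named by their labels.

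Setd8 is the methyltransferase that places a single methyl group on lysine 20 of histone H4, a mark needed for compact chromatin and for passage through the cell cycle. TCPOBOP is an agonist of the nuclear receptor CAR, which switches on cytochrome P450 genes and drives hepatocytes into division. In ATAC-seq a transposase inserts adapters where DNA is not wrapped by nucleosomes, so promoters and enhancers appear as regions of dense cuts. H3K27ac marks active promoters and enhancers, CTCF and the cohesin subunit Smc3 mark loop anchors, and AP-1 is a family of Fos and Jun dimers that bind nucleosomal enhancers after stress or mitogens.

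The sequences below are shown because they carry the gained regions described later: those at genes among the largest rises in RNA for each link (the promoter of Prelid2, the third largest rise at a promoter, is not shown), the 2 regions with the highest fold enrichment, and the promoters of Bach1 and Cxcl10, which were added after their values were seen as examples of an AP-1 match at a promoter. Each is a window of at most 300 bases at the centre of the region on the forward strand of GRCm38 (RefSeq GRCm38.p6, the build of the deposited coordinates), in lower case, with annotated exon bases at an end left out. Capitals mark a match to the AP-1 motif TGANTCA, which reads the same on both strands when the middle base is ignored.
Cyp2b10, promoter, chr7:25897410-25897619: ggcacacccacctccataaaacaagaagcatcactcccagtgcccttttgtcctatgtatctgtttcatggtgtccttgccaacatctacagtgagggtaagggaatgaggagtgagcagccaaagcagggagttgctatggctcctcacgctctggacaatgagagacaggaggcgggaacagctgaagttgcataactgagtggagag
Pnliprp1, promoter, chr19:58728750-58728886: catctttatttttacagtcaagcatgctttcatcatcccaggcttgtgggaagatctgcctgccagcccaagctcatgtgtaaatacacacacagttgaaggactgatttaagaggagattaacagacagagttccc
Krt4, promoter, chr15:101925061-101925360: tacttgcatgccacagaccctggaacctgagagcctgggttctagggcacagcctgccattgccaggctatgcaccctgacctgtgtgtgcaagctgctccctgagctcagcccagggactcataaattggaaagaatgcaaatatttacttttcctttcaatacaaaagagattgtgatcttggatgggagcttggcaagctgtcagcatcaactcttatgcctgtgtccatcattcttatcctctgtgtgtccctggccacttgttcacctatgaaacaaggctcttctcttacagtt
Pnliprp1, distal, chr19:58726582-58726881: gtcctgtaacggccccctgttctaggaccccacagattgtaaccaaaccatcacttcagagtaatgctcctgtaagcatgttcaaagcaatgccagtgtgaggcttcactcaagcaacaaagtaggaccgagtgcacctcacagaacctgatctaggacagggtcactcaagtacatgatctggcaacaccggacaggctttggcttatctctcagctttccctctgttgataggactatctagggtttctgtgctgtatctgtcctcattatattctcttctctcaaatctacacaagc
Cyp2b9, distal, chr7:26168830-26169129: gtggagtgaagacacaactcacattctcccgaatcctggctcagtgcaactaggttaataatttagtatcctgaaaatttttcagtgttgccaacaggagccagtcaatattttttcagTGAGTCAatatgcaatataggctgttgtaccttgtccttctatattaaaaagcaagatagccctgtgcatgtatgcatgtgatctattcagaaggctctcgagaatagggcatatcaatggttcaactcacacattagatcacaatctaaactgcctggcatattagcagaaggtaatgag
Fam83a, distal, chr15:58005176-58005475: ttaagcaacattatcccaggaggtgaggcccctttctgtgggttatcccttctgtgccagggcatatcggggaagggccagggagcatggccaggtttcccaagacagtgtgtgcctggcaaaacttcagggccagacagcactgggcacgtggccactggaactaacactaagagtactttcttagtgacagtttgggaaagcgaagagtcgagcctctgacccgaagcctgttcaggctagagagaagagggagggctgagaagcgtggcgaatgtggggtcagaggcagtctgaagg
Ifi27l2b, strongest region, chr12:103457224-103457438: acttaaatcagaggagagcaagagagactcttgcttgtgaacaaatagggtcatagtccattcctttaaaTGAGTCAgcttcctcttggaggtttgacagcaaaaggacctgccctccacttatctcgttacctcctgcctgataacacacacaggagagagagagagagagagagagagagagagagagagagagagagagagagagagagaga
Gm13393, second strongest region, chr2:29089358-29089657: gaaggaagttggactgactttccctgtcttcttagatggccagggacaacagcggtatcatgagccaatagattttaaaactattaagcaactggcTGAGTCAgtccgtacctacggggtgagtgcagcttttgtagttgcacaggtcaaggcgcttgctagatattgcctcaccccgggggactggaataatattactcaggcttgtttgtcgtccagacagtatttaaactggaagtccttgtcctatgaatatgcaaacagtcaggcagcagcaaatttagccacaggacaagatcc
Bach1, promoter, chr16:87699924-87700223: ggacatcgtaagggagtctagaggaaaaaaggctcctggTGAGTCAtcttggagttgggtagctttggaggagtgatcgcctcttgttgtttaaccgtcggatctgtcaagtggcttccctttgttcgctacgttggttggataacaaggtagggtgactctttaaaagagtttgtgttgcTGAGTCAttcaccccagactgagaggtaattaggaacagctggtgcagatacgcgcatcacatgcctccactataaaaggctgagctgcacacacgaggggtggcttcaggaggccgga
Cxcl10, promoter, chr5:92348890-92349136: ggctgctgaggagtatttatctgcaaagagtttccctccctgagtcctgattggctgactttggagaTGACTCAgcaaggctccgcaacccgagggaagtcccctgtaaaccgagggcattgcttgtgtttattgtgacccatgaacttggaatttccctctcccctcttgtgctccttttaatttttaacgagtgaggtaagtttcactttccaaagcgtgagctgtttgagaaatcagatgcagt
The windows at Cyp2b9, Ifi27l2b, Gm13393 and Cxcl10 each hold 1 AP-1 match and the Bach1 window holds 2. The windows at Cyp2b10, Pnliprp1, Krt4 and Fam83a hold none, which says only that these letters are not in these windows.

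Gained regions were short and as strongly enriched as the rest. Their median length was 185 bp (144 to 1227), against 284 bp for kept and 220 bp for lost regions, and they covered 720.2 kb of the 7311 kb in the Setd8-LKO list. The median fold enrichment over background was 7.49 in gained, 7.18 in kept and 7.01 in lost regions. The median −log10 p was 22.6, 26.9 and 23.2. Lost regions, which are also found in a single list, are thus the set nearest to gained regions in length and significance.

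**Figure D1:**
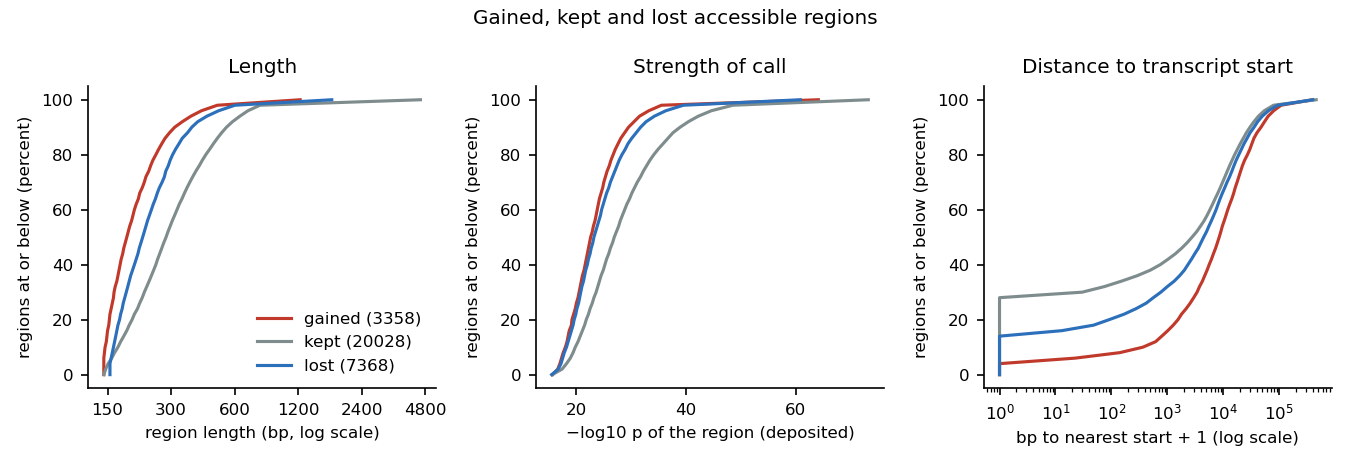
Cumulative share of gained (red), kept (grey) and lost (blue) accessible regions, in percent, by length in bp (log scale), by the −log10 p of the region as deposited, and by distance to the nearest transcript start in bp plus 1 (log scale). Gained regions are the shortest set (median 185 bp) and lie farthest from a transcript start (median 8455 bp), while their −log10 p values run close to those of lost regions (medians 22.6 and 23.2).

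Few members sat at the edge of the rule. The 3 gained regions nearest to a WT region were 6, 78 and 196 bp away, with fold enrichments of 7.26, 4.57 and 5.68. The 3 kept regions with the smallest overlap shared 13, 18 and 20 bp with a WT region, with fold enrichments of 5.78, 5.89 and 7.01. The median gained region lay 14317 bp from the nearest WT region, 112 (3.34%) lay within 500 bp of one and 1346 (40.1%) within 10000 bp.

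The region with the highest fold enrichment (15.2) covered the transcript start of Ifi27l2b, an interferon-inducible gene, at chr12:103457201-103457376, and overlapped a Smc3 peak but no H3K27ac peak of the Setd8-LKO list. The second (14.6) lay 730 bp from the start of the predicted gene Gm13393 and overlapped no H3K27ac, Smc3 or CTCF peak of that list. The next 8 had fold enrichments of 12.9 to 13.5, and all 8 lay in introns or between genes. None of these 10 regions overlapped an H3K27ac peak of either list. The longest gained region, 1227 bp at chr4:61591217-61592443, overlapped an exon of Mup17, one of the major urinary protein genes, and had a fold enrichment of 5.42.

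Gained regions lay mostly away from promoters. Of 3358, 531 (15.8%, 14.6 to 17.1) were within 1000 bp of an annotated transcript start, 196 (5.84%) overlapped an exon, 1494 (44.5%) lay in introns and 1137 (33.9%) between genes. The promoter share was 41.8% in kept and 32.0% in lost regions, and both intervals lie above that of gained regions. The median distance to a transcript start was 8455 bp in gained, 2760 bp in kept and 4457 bp in lost regions. Gained regions more often lay 10 to 50 kb from a start (35.7%, against 24.9% of kept and 27.3% of lost regions).

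The promoters themselves differed in kind. A gained promoter region covered a transcript start in 186 of 531 cases (35.0%), a kept one in 67.2% and a lost one in 47.0%. Gained promoter regions, and to a lesser degree lost ones, were thus more often beside the start than on it. Gained regions are also the shortest set, and the part of length in this order was not tested. A protein-coding gene was present at 74.0% of gained, 90.9% of kept and 88.6% of lost promoter regions. Gained regions were found on every autosome and on X, and their share of the Setd8-LKO regions ranged from 10.8% on chromosome 11 to 19.8% on X (16.0 to 24.1). Another gained region lay within 10000 bp of 315 gained regions (9.38%).

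Most gained regions carried none of the other marks. H3K27ac peaks of the Setd8-LKO list overlapped 510 (15.2%, 14.0 to 16.4), against 47.9% of kept and 29.2% of lost regions. No H3K27ac, CTCF or Smc3 peak of the Setd8-LKO lists overlapped 2706 (80.6%, 79.2 to 81.9), against 47.4% of kept and 65.6% of lost regions. Among promoter regions, H3K27ac overlapped 42.7% of gained, 80.8% of kept and 70.7% of lost regions, and Smc3 overlapped 33.0%, 69.6% and 65.9%. Overlap was counted over whole regions, and the sets differ in length (medians 185, 284 and 220 bp). The part of length in these shares and in those below was not tested.

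The direction of H3K27ac differed between gained and lost regions away from promoters. Of the 2826 gained distal regions, 162 (5.73%, 4.90 to 6.65) overlapped an H3K27ac peak of the Setd8-LKO list only and 41 (1.45%, 1.04 to 1.96) one of the WT list only. In kept distal regions these shares were 7.29% and 6.44%, and in lost distal regions 2.56% and 6.05%. Over all gained regions, 209 (6.22%) had H3K27ac in the Setd8-LKO list only, 301 (8.96%) in both lists, 59 (1.76%) in the WT list only and 2789 (83.1%) in neither. The H3K27ac lists are of like size (27752 and 27983 peaks), so their shares can be set side by side more directly than those of CTCF (20905 and 5838) and Smc3 (21615 and 13045).

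CTCF peaks of the Setd8-LKO list overlapped 4.85% of gained, 19% of kept and 16.7% of lost regions. Smc3 peaks of that list overlapped 7.89%, 33.5% and 25%. At distal gained regions the larger Smc3 list of Setd8-LKO liver overlapped 3.18% (2.57 to 3.90) and the smaller WT list 6.69% (5.79 to 7.67), and the same order was seen at kept (7.64% and 11.7%) and lost (5.73% and 9.93%) distal regions. Islands of Lamin A/C, the nuclear lamina, overlapped 3.01% of gained, 1.22% of kept and 1.81% of lost regions in the Setd8-LKO list. In the WT list these shares were 5.03%, 2.41% and 2.55%. The Lamin A/C shares leave out chromosomes 19 and Y, so they cover 3259 gained, 19347 kept and 7090 lost regions. H4K20Me3 islands of the Setd8-LKO list overlapped 2.50% of gained, 2.39% of kept and 2.39% of lost regions. H4K20Me3 islands of the WT list overlapped 1.91% of gained (1.47 to 2.43), 1.06% of kept (0.921 to 1.21) and 1.15% of lost regions (0.922 to 1.42). Gained regions thus stood above both other sets there.

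**Figure D2:**
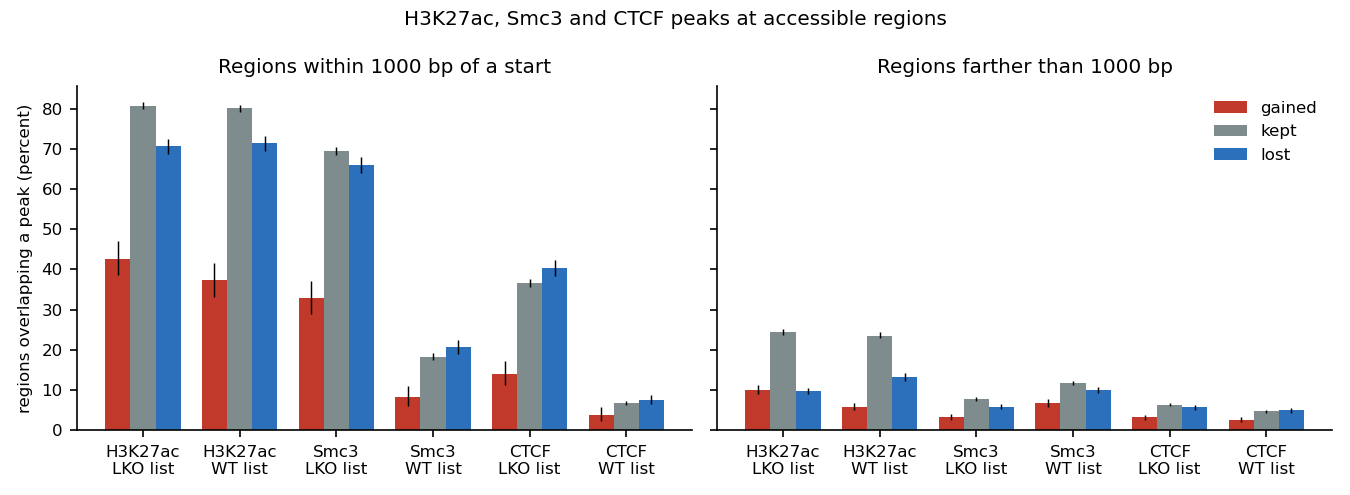
Percent of gained (red), kept (grey) and lost (blue) accessible regions that overlap an H3K27ac, Smc3 or CTCF peak of the Setd8-LKO or the WT list by at least 1 bp, for regions within 1000 bp of a transcript start and for regions farther away. Bars start at 0 and lines are 95% Clopper-Pearson intervals. At promoters gained regions are the lowest set in every list, with 42.7% carrying H3K27ac of the Setd8-LKO list against 80.8% of kept regions.

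Fold enrichment and marks ran in opposite directions within the gained regions. With the regions put into 4 bins of 839 or 840 by fold enrichment (1.81 to 6.07, to 7.49, to 8.80 and to 15.2), the share with H3K27ac of the Setd8-LKO list from the lowest to the highest bin was 39.0%, 14.6%, 5.01% and 2.14%, and the promoter share was 25.9%, 16.7%, 12.4% and 8.33%. Fold enrichment is relative to the local background of reads, and the part of that background in this order was not tested. The share with an AP-1 match was 18.9%, 17.7%, 19.3% and 21.1% over the same bins.

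Gained regions held AP-1 matches more often than other accessible regions. A match to TGANTCA in the central 300 bases was present in 646 of 3356 gained regions (19.2%, 17.9 to 20.6), 10.2% of kept regions (9.82 to 10.7) and 8.38% of lost regions (7.75 to 9.03). Among the 300-base promoters of RefSeq, 7.93% held one. The order was the same away from promoters, at 20.2%, 13.3% and 9.89%. Most regions with a match had one with G or C in the middle, of which the printed windows of Cyp2b9 and Cxcl10 are examples. TGAGTCA or its reverse complement TGACTCA was found in 14.8% of gained, 7.48% of kept and 5.12% of lost regions. Matches with A or T in the middle only were found in 4.47%, 2.76% and 3.26%. The match lay within 50 bases of the centre in 48.5% of the gained regions that had one, 39.3% of kept and 33.2% of lost regions.

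Base composition also differed between the sets, so AP-1 was counted within ranges of GC. The median GC content of the window was 48.0% in gained, 52.7% in kept and 51.0% in lost regions. In windows of at most 48.3% GC the AP-1 share was 19.9% in gained, 14.2% in kept and 11% in lost regions. Between 48.3% and 55.7% GC it was 20.3%, 11.6% and 8.89%, and above this 13.1%, 5.59% and 4.41%. In each range the interval of gained regions lay above those of both other sets.

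The motifs of CpG-rich promoters were rarer in gained regions. The GC box of SP and KLF factors (GGGCGG) was found in 9.03% of gained, 26.4% of kept and 20.3% of lost regions, the ETS motif (CCGGAAG) in 2.03%, 8.24% and 5.47%, and the NRF1 motif in 0.358%, 3.40% and 1.79%. The ratio of observed to expected CpG had medians of 0.211, 0.312 and 0.260. Away from promoters the GC box was found in 5.41% of gained, 8.49% of kept and 7.33% of lost regions.

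Motifs of hepatocyte factors differed by place. The C/EBP motif (TTGCNNAA) was found in 21.6% of gained, 18.5% of kept and 16.7% of lost regions, but away from promoters in 22.1%, 23.6% and 19.9%. FOXA (TGTTTAC) and HNF4A (CAAAGTCCA), the pioneer factor and nuclear receptor that maintain hepatocyte enhancers, were found away from promoters in 9.45% and 2.72% of gained, 10.5% and 3.58% of kept and 8.25% and 2.58% of lost regions. At promoters all 3 shares were higher in gained regions. C/EBP was found in 18.7% of gained (15.4 to 22.3), 11.5% of kept and 9.95% of lost promoter regions. FOXA was found in 6.79% (4.80 to 9.28), 3.81% (3.41 to 4.25) and 4.19% (3.42 to 5.08), where the gained and lost intervals overlap. HNF4A was found in 17 gained promoter regions (3.21%, 1.88 to 5.09), 0.968% of kept (0.770 to 1.20) and 0.805% of lost ones (0.485 to 1.25), and AP-1 in 14.3%, 5.91% and 5.17%. The STAT motif (TTCNNNGAA) was found in 8.43% of gained, 8.72% of kept and 12.5% of lost regions. The spaced repeat bound by CAR and RXR was found in 2 gained, 5 kept and 1 lost regions, too few to compare. CTCF motifs were found in 7.66%, 7.62% and 9.01%.

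**Figure D3:**
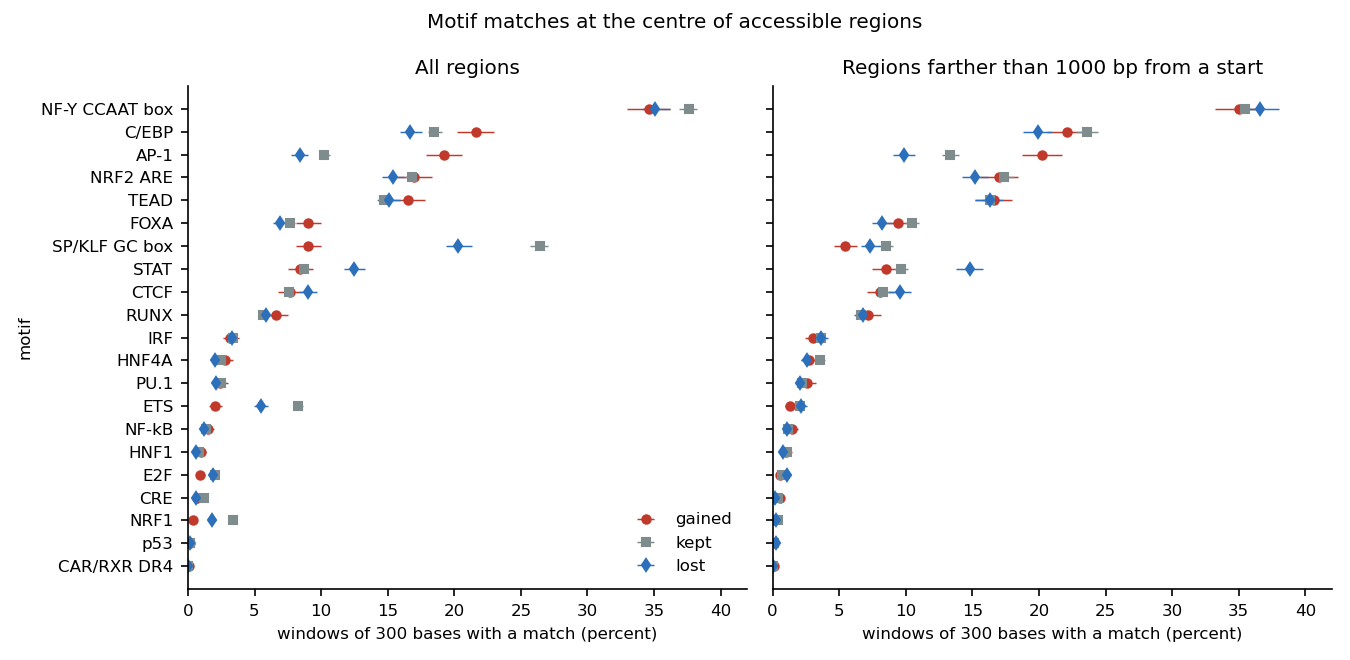
Percent of 300-base windows at the centre of gained (red), kept (grey) and lost (blue) accessible regions that hold a match to each of 21 motifs on either strand, for all regions and for regions farther than 1000 bp from a transcript start. Lines are 95% Clopper-Pearson intervals. The AP-1 share of gained regions, 19.2%, stands above the 10.2% and 8.38% of kept and lost regions, and the GC box stands below.

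Matches were not spread evenly over the H3K27ac classes. AP-1 matches were present in 28.7% of the 209 gained regions with H3K27ac in the Setd8-LKO list only, 11.3% of the 301 with H3K27ac in both lists, 25.4% of the 59 with it in the WT list only and 19.3% of the 2789 with it in neither. Promoter regions made up 22.5%, 59.8%, 30.5% and 10.3% of these classes.

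The RNA of genes next to gained regions was then examined. A gene was linked to a region within 1000 bp of one of its transcript starts (promoter link), and otherwise to the region as the nearest start within 50 kb (distal link), which does not show that the region acts on the gene. In all, 3049 of 3358 gained regions (90.8%) were linked to 2770 genes, of which 2477 had a single region, 246 had 2, 38 had 3 and 9 had 4. Setd8-LKO + TCPOBOP and WT + TCPOBOP libraries were each compared with the same 5 untreated WT libraries, so the 2 comparisons are not independent. The deposited tables list 3900 and 719 genes that the authors selected on these libraries, with an absolute log2 fold change of about 1 or more, so a listed gene had already passed a test and a gene that is not listed has no value here. In bulk liver RNA, fewer cells of a type and less RNA per cell cannot be told apart.

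Genes with a gained region at the promoter were listed more often and were mostly higher. Of 593 such genes, 140 (23.6%) were listed for Setd8-LKO + TCPOBOP, against 7.01% of all annotated genes, 13.9% of genes with a kept and 17.6% with a lost region at the promoter. Of the 139 tested, 92 rose and 34 fell (edgeR quasi-likelihood test; a call needs an adjusted p under 0.05 and a difference of 1 or more on the log2 scale), where 50.5% of all listed genes tested were called higher and 34.6% lower. Of the called genes 73.0% (64.4 to 80.5) were thus higher, against 59.4% of all listed genes, 50.5% (47.6 to 53.4) of those with a kept and 44.3% (39.5 to 49.2) of those with a lost promoter region. All libraries labelled Setd8-LKO lay above all untreated libraries in 94 of the 139 and below them in 36, beside 51.5% and 35.4% of all listed genes. A gene can have regions of more than 1 kind, so these sets overlap.

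Among gained promoters the share was higher where no other accessible region was present. Of the 89 called genes whose promoters held a gained but no kept or lost region, 72 rose and 17 fell (80.9% higher, 71.2 to 88.5). Where a kept or lost region also lay at a promoter of the gene, 20 rose and 17 fell (54.1%, 36.9 to 70.5). Distal links showed less: of 341 tested genes 178 rose and 120 fell, so 59.7% (53.9 to 65.3) of the called genes were higher, near the 59.4% of all listed genes. For kept and lost distal regions this share was 47.8% and 41.4%.

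The direction of RNA at gained regions differed between H3K27ac classes. Of genes linked to a gained region with H3K27ac in the Setd8-LKO list only, 46 rose and 8 fell (85.2% of called genes higher, 72.9 to 93.4), with 23 and 2 of these at promoters. With H3K27ac in both lists the links differed in direction: 29 rose and 14 fell at promoters (67.4%, 51.5 to 80.9), while 7 rose and 21 fell among distal links (25%, 10.7 to 44.9). With H3K27ac in neither list 190 rose and 102 fell (65.1%, 59.3 to 70.5). With H3K27ac in the WT list only, 0 of 16 tested genes rose and 13 fell. The same split of kept regions gave 157 higher and 65 lower for the Setd8-LKO list only (70.7%, 64.3 to 76.6), and 28 and 143 for the WT list only. In lost regions 23 were higher and 21 lower for the Setd8-LKO list only (52.3%, 36.7 to 67.5), an interval below that of gained regions, and 12 and 73 for the WT list only.

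Within the gained regions, 62 genes linked to a region with an AP-1 match rose and 24 fell (72.1% of called genes higher, 61.4 to 81.2), against 203 and 131 of genes linked to a region without one (60.8%, 55.3 to 66.0), and these intervals overlap. For the highest bin of fold enrichment 59 rose and 17 fell (77.6%, 66.6 to 86.4), and for the lowest bin 100 and 75 (57.1%, 49.5 to 64.6). Linked genes were listed less often in the highest bin (96 of 691, 13.9%) than in the lowest (196 of 773, 25.4%). The shares of called genes therefore do not show that more genes rose at regions of high fold enrichment.

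**Figure D4:**
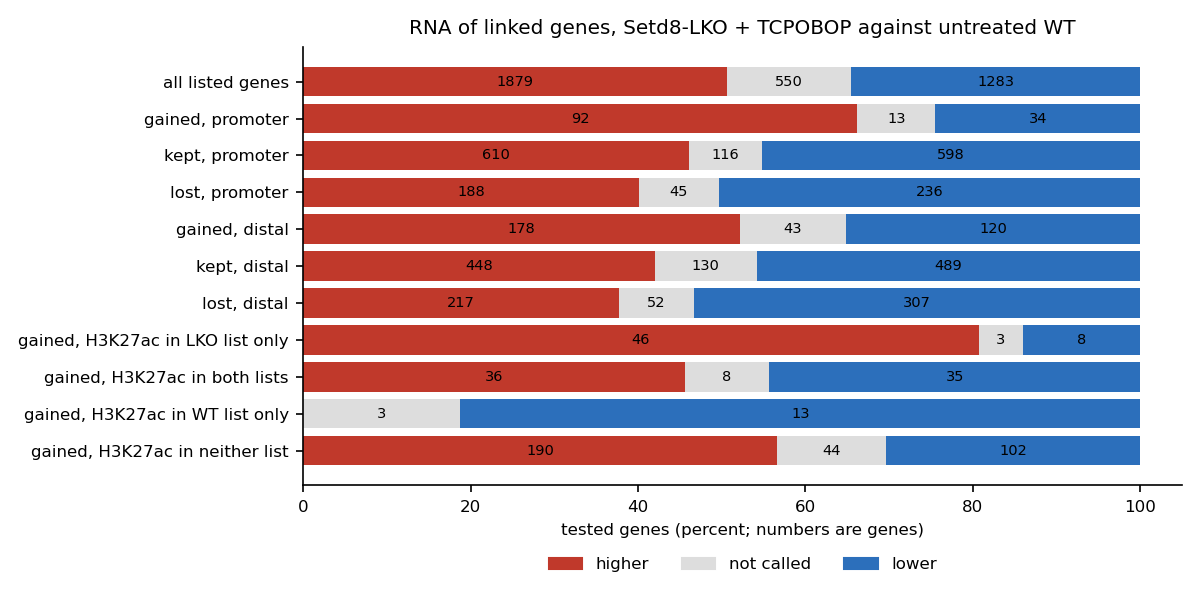
Percent of tested genes called higher (red), not called (grey) or lower (blue) in Setd8-LKO + TCPOBOP against untreated WT by edgeR, with the number of genes in each bar, for all listed genes of the annotation and for genes linked to gained, kept or lost regions. The bars of gained promoter regions (92 higher, 34 lower) and of gained regions with H3K27ac in the Setd8-LKO list only (46 and 8) lean to higher, and the bar with H3K27ac in the WT list only leans to lower (0 and 13).

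These counts depend on the scaling of the libraries. With size factors computed by DESeq2 over the listed genes alone, the median log2 fold change of all listed genes shifted by -0.82 and 34.3% of their calls were higher. The gained promoter genes then had 51 higher and 40 lower calls (56.0% higher) and the distal genes 87 and 132 (39.7%). The promoter share thus remained above that of all listed genes, while the direction of the distal majority turned. None of the 41 genes named by rule and tested changed sign under this or any other scaling in Setd8-LKO + TCPOBOP, but calls were lost. Of 28 members of the gene lists below with a gained region that were called higher, 18 were still called with these factors, and all 6 called lower. The 10 that were not are Cyp3a11 (log2 fold change 0.58), Cyp2c50 (0.85), Cyp2a5 (1.22), Tuba8 (1.38, adjusted p = 0.061, edgeR), Ces2a (0.42), Sult1d1 (0.43), Ephx1 (0.34), Gsta4 (0.26), S100a10 (0.95) and Ccl2 (1.04, adjusted p = 0.16).

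The largest rises at gained promoters included enzymes of drug metabolism. Genes ranked here and below by rise or fall were taken from called genes whose groups of libraries did not overlap. Cyp2b10, the cytochrome P450 that responds most to CAR, had 25 to 106 normalised counts in the 5 untreated WT libraries (28, 25, 70, 28 and 106) and 35767, 31592, 66038 and 55164 in the libraries labelled Setd8-LKO (log2 fold change 9.84, SE 0.61, adjusted p = 6.5e-06). Its gained region, shown above, covered the transcript start at chr7:25897430-25897690 with a fold enrichment of 3.35, lay 3959 bp from the nearest WT region and overlapped an H3K27ac peak of the Setd8-LKO list only. The highest untreated value lay far below the lowest of the treated group.

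Gstm3, a glutathione S-transferase, had 2223, 2403, 3173, 1871 and 5255 normalised counts in untreated WT and 72035, 80176, 59888 and 91487 in the libraries labelled Setd8-LKO (log2 fold change 4.67, SE 0.34, adjusted p = 1.5e-05). Its region at chr3:107969132-107969318 covered the start and overlapped H3K27ac of the Setd8-LKO list only, as at Cyp2b10. For both genes, as for Cyp2b9, Cyp2c50, Cyp2c65, Cyp3a11, Gsta4 and Sult1e1, reads may be shared with close family members, and how such reads were counted is not given in the sources used here.

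Pnliprp1, a member of the pancreatic lipase family, had a gained region on its start and another 2036 bp away. It was at 0 counts in all 5 untreated libraries and at 45, 89, 40 and 98 in the libraries labelled Setd8-LKO, at least 10.6-fold higher against a floor of 3 counts per library. Neither of its regions, the windows shown first for chromosome 19, overlapped H3K27ac, CTCF or Smc3 of the Setd8-LKO lists. The nearest WT accessible region was 121926 bp from the promoter region.

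Several gained promoters belonged to genes of secreted factors and stress. Gdf15, a stress-induced cytokine, had 167, 104, 67, 104 and 72 normalised counts in untreated WT and 2081, 2318, 3791 and 2231 in the libraries labelled Setd8-LKO (log2 fold change 4.66, SE 0.31, adjusted p = 9.7e-06), with H3K27ac in both lists at its start. Clcf1, a cytokine of the IL-6 family, had 19 to 35 and 647 to 865 counts (4.93, SE 0.21), and its 560 bp region carried H3K27ac and Smc3 of the Setd8-LKO lists. Eda2r, a death receptor of the TNF family and a p53 target, had 4 to 15 and 179 to 236 counts (4.76, SE 0.33), and its region on the start, with a fold enrichment of 9.79, was 674213 bp from the nearest WT region and carried none of these marks. For these genes, as for the others ranked by rise or fall, lack of overlap between the groups was a condition of the choice.

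The other genes among the 10 largest rises at gained promoters were less well known in liver. Prelid2, a PRELI domain gene, had 1 to 8 and 425 to 703 counts (log2 fold change 6.65, SE 0.36) and 4 gained regions, of which the one on its start and 1 other carried H3K27ac of the Setd8-LKO list only. Krt4, an epithelial keratin, had 0 to 3 and 52 to 115 (5.34, SE 0.49), Ttc39aos1 0 to 5 and 62 to 86 (5.31, SE 0.55) and Rnf138rt1 0 to 2 and 21 to 31 (4.80, SE 0.55). Ttc39aos1 is antisense to Ttc39a and Rnf138rt1 is a retrotransposed copy, so reads of the partner gene may be counted with them.

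Not every gained promoter went with a rise. Keg1, a glycine N-acyltransferase-like gene, had 3599, 5529, 4030, 2284 and 3321 counts in untreated WT and 82, 130, 156 and 237 in the libraries labelled Setd8-LKO (log2 fold change -4.63, SE 0.37, adjusted p = 2.7e-05). Nnmt, which methylates nicotinamide, had 1495, 1864, 7049, 4425 and 5041 against 1044, 341, 582 and 544 (-2.66, SE 0.50, adjusted p = 0.0064). The gained regions of both overlapped H3K27ac of the WT list only, and WT accessible regions were 430 and 1010 bp away.

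Sntg2, a syntrophin, had 144 to 336 and 11 to 26 counts (-3.60, SE 0.33) and Aspdh, an aspartate dehydrogenase, 1431 to 1934 and 152 to 311 (-2.84, SE 0.24), both with H3K27ac in both lists at the gained region. Gm40770 had 94 to 135 and 11 to 24 (-2.78, SE 0.28) and was the exception, with H3K27ac in the Setd8-LKO list only.

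**Figure D5:**
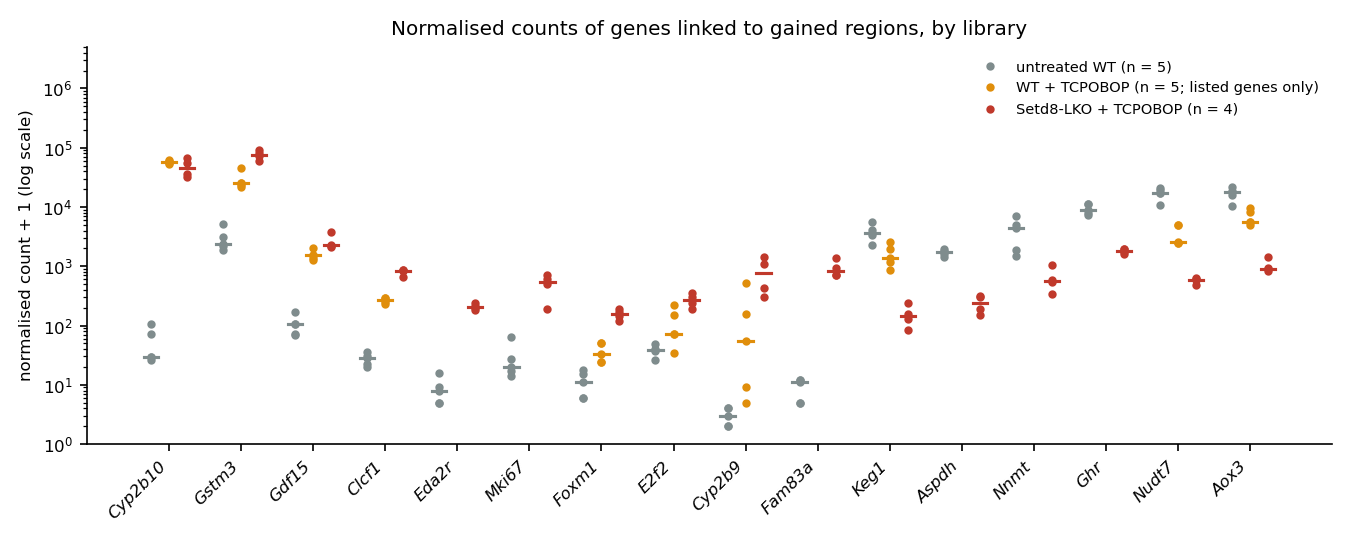
Normalised count plus 1 (log scale) of 16 genes linked to gained regions, 1 point per library, for untreated WT (grey), WT + TCPOBOP (orange, where the gene is listed) and Setd8-LKO + TCPOBOP (red). Short lines are medians. The red points of the first 10 genes lie above all grey points, as for Cyp2b10 (31592 to 66038 against 25 to 106), and those of the last 6 lie below them. For genes named by the size of their rise or fall, this was a condition of the choice.

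Among distal links the largest rises again held CAR and detoxification genes. Cyp2b9, a second P450 of the same family, had 2, 1, 3, 1 and 3 normalised counts in untreated WT and 298, 422, 1098 and 1414 in the libraries labelled Setd8-LKO (log2 fold change 8.46, SE 0.61, adjusted p = 1.4e-05). Its gained region, with the AP-1 match shown above, lay 4334 bp from the start and 85999 bp from the nearest WT region. Sult1e1, the oestrogen sulphotransferase, had 0 to 4 and 28 to 205 counts (5.88, SE 0.76), and Cyp2c65 0 to 2 and 37 to 101 (5.94, SE 0.63).

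Fam83a, an adaptor of growth factor signalling, had 4, 4, 11, 10 and 11 counts in untreated WT and 937, 707, 717 and 1378 in the libraries labelled Setd8-LKO (log2 fold change 6.81, SE 0.37, adjusted p = 3.2e-06). Of its 2 gained regions, the one 6677 bp from the start carried H3K27ac of the Setd8-LKO list only. Corin, a membrane protease, had 0 to 7 and 214 to 436 counts (6.79, SE 0.48). Myom3, a sarcomere protein, had 4 to 35 and 716 to 937 (5.54, SE 0.46) and 3 gained regions, 2 of them with H3K27ac of the Setd8-LKO list only. Tmprss7 had 0 to 2 and 50 to 61 (5.51, SE 0.39) and Sdcbp2 0 to 4 and 26 to 141 (5.48, SE 0.68).

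The largest falls among distal links were in hepatocyte metabolism and transport. Nudt7, a peroxisomal coenzyme A hydrolase, had 19453, 20546, 16929, 17027 and 10760 counts in untreated WT and 578, 482, 597 and 636 in the libraries labelled Setd8-LKO (log2 fold change -4.89, SE 0.25, adjusted p = 2.4e-06). The organic anion transporter Slco1a1 had 6760 to 9968 and 286 to 1045 (-4.07, SE 0.42), the aldehyde oxidase Aox3 10307 to 21686 and 833 to 1440 (-4.04, SE 0.29), and the dicarboxylate transporter Slc13a2 60 to 276 and 5 to 10 (-4.62, SE 0.52). AC121973.1 had 66 to 225 and 2 to 16 (-4.05, SE 0.58). The regions of Nudt7 and Aox3 held an AP-1 match.

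The gene lists, whose members were chosen with earlier results of these data known, are set out here as counts. Beside them, 5.00% of annotated and 12.1% of listed genes had a gained region. Of all listed genes tested in Setd8-LKO + TCPOBOP, 50.5% were called higher and 34.6% lower. Of 29 CAR response genes 10 had a gained region, and all 9 of them that were tested rose, with log2 fold changes from 1.21 for the carboxylesterase Ces2a to 9.84 for Cyp2b10. Of the whole list 20 of 21 tested genes rose, and with the DESeq2 size factors 10 of 21 and 3 of 9 did. At promoters these were Cyp2b10, Cyp2c50 (1.64, SE 0.38), Cyp3a11 (1.35, SE 0.28) and the tubulin gene Tuba8 (2.17, SE 0.39). The call of Cyp2c50 was lost when untreated WT library 4 or 5 or Setd8-LKO library 3 or 4 was left out, with log2 fold changes of 1.45 to 1.59. Of 23 NRF2 and detoxification genes 6 had a gained region, 5 of which rose, beside 15 of 18 tested in the whole list: Gstm3, Abcc4 (3.3, SE 0.29), Akr1b3 (2.07, SE 0.29), Ephx1 (1.16, SE 0.18) and Gsta4 (1.09, SE 0.22, and 0.93 without untreated WT library 4). Ephx1 and Gsta4 were not called with the DESeq2 size factors, under which 7 of 18 in the whole list were called higher and 3 lower. The other, Gclc, the catalytic subunit of glutathione synthesis, fell by 1.35 (SE 0.24) on the log2 scale.

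Genes of hepatocyte identity also held gained regions, and none of the 6 tested rose. Of 40 hepatocyte factors and functions 11 had one, including the pioneer factors Foxa1, Foxa2 and Foxa3 and the nuclear receptor Nr5a2, which are not listed. Of the 6 tested, 5 fell: Onecut1 (-2.61, SE 0.37), the growth hormone receptor Ghr (-2.36, SE 0.19), Serpina1b (-1.82, SE 0.32), Asl of the urea cycle (-1.64, SE 0.24) and Ppara (-1.53, SE 0.24). Tat, tyrosine aminotransferase, did not pass the test (-1.29, SE 0.42, adjusted p = 0.18). Over the whole list 17 of 20 tested genes fell and 1 rose, so the fall was not particular to members with a gained region. Of all listed genes tested, 34.6% were called lower.

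Cell cycle genes seldom had a gained region, and so did genes at large (5.00% of annotated and 12.1% of listed genes had one). Only Mki67 and Foxm1 of 28 G2/M genes and E2f2 of 30 DNA replication genes had one, each at the promoter, while 27 of 27 and 14 of 18 tested members of these lists rose. With the DESeq2 size factors 26 of 27 and 7 of 18 were called higher, and 0 and 2 lower. Mki67, the proliferation marker Ki-67, had 19, 13, 26, 16 and 64 counts in untreated WT and 604, 707, 495 and 189 in the libraries labelled Setd8-LKO (log2 fold change 4.17, SE 0.52, adjusted p = 0.00037). Foxm1, the factor that activates mitotic genes, had 5 to 17 and 116 to 186 (3.86, SE 0.35) and E2f2 25 to 48 and 188 to 354 (2.85, SE 0.25). Of 28 p53 targets and CDK inhibitors 4 had a gained region, of which Gdf15 and Eda2r rose and Mdm2 and Ei24 are not listed, and all 15 tested members of that list rose. With the DESeq2 size factors 8 of 15 were called higher, Gdf15 and Eda2r among them, and 0 lower.

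Of the remaining lists, 2 of 34 progenitor and 5 of 33 cytoskeleton genes had a gained region. So did 3 of 48 secreted and 1 of 27 AP-1 genes, beside 5.00% of annotated and 12.1% of listed genes. Sox4 (4.49, SE 0.25) and Prom1 (5.04, SE 0.50) rose among 34 progenitor, biliary and oncofetal genes, both with distal links, where 17 of 21 tested in that list rose. Anxa2 (3.47, SE 0.27), Tmsb10 (2.50, SE 0.37), Tpm1 (2.18, SE 0.16) and S100a10 (1.80, SE 0.28) rose among 33 cytoskeleton, annexin and S100 genes, where 16 of 18 tested rose, and Myh9 is not listed. Cxcl10 (2.76, SE 0.28), Pdgfa (2.28, SE 0.14) and the monocyte chemokine Ccl2 (1.88, SE 0.38) rose among 48 secreted inflammatory and matrix genes, and the gained regions of Cxcl10 and Ccl2 lay at promoters. Of that list 17 of 23 tested rose. Of 27 AP-1 and stress factor genes only Bach1, a repressor of antioxidant genes, had gained regions, and it is not listed, while 12 of 16 tested members of that list rose and 0 fell. These whole-list counts were smaller with the DESeq2 size factors. Then 13 of 21 progenitor and 8 of 18 cytoskeleton genes were called higher, and 0 and 1 lower. For secreted and AP-1 genes 11 of 23 and 6 of 16 were higher, and 2 and 0 lower.

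Of the 9 genes with 4 gained regions, most had no RNA value. Epb41, Gm37250, Gm44456, Nedd4l and Ptprg are not listed in either table. Prelid2 is described above. Met, the receptor of hepatocyte growth factor, had 1355 to 1806 counts in untreated WT and 723 to 824 in the libraries labelled Setd8-LKO (log2 fold change -1.0, SE 0.14, adjusted p = 0.0007), at the limit of the fold threshold: without untreated WT library 1 or 4 or Setd8-LKO library 2 it lay between -0.97 and -0.94 and no longer called, nor was it without Setd8-LKO library 4. Gm14319 did not pass the test (1.38, SE 0.59, adjusted p = 0.60), and Ttc39b is listed for WT + TCPOBOP only, where it rose (1.58, SE 0.18).

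Some markers of cell types are listed, and those had already been selected by the authors for a difference in these libraries. The sums below cover listed markers only, and a marker that is not listed has no value here. Of all listed genes tested, 50.5% were called higher and 34.6% lower. Of 34 leukocyte markers 6 are listed and 2 rose, and their summed normalised counts were 73 to 222 in untreated WT and 369 to 659 in the libraries labelled Setd8-LKO. All 7 listed of 12 stellate cell and fibroblast markers rose (2415 to 3635 and 6673 to 16074). Of 12 endothelial markers 1 is listed and rose (89 to 198 and 196 to 330). Of 10 hepatocyte markers 6 are listed, 0 rose and 5 fell (1150356 to 1882211 and 467784 to 664572). Gained regions were linked to 1 leukocyte marker (Cx3cr1), 1 stellate cell marker (Reln), 5 endothelial markers (Kdr, Vwf, Tek, Eng and Ptprb) and 1 hepatocyte marker (Tat). The nuclei for ATAC-seq came from whole liver, and the part of these cells in the gained regions was not tested.

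TCPOBOP in wild type liver gave a second set of values for the same genes, although no chromatin list of that condition was analysed here. Of 593 genes with a gained promoter region 52 (8.77%) were listed for WT + TCPOBOP, against 1.29% of all annotated genes, 2.94% with a kept and 3.95% with a lost promoter region. Of 49 tested, 31 rose and 3 fell, where 51.4% of all listed genes tested were called higher and 16.2% lower. Of 105 tested genes with distal links 68 rose and 11 fell. All treated libraries lay above all untreated ones in 34 of the 49 promoter genes, where the share over all listed genes was 60.8%, and below them in 3, where it was 21.2%. With DESeq2 size factors over the listed genes, the median log2 fold change of all listed genes shifted by -1.17, and 25.6% of their calls were higher. The calls became 10 higher and 8 lower for promoter links (55.6% higher) and 18 and 18 for distal links (50.0%).

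The values in both treated conditions stand side by side here, and no test between them was run. Cyp2b10 had 53827 to 61594 counts in WT + TCPOBOP (log2 fold change 10.12, SE 0.54) beside 31592 to 66038 in the libraries labelled Setd8-LKO. Krt4 had 127 to 484 (7.15, SE 0.57) beside 52 to 115, and Pnliprp1 50 to 98, at least 13.3-fold above the floor of the untreated libraries, beside 40 to 98. Tmprss7 had 33 to 49 (4.98, SE 0.40) beside 50 to 61. Prelid2 had 32 to 64 (3.21, SE 0.39) beside 425 to 703, and Clcf1 226 to 292 (3.32, SE 0.22) beside 647 to 865. Nudt7 had a log2 fold change of -2.28 (SE 0.28) in WT + TCPOBOP beside -4.89, and Slco1a1 of -1.61 (SE 0.19) beside -4.07. Keg1 (-1.25, adjusted p = 0.20) and Slc13a2 (1.44, adjusted p = 0.27) were not called in WT + TCPOBOP. Eda2r, Fam83a, Corin, Mki67, Cxcl10 and Ghr are not listed for WT + TCPOBOP.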

How the data were processed

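ATAC-seq, ChIP-seq, CUT&Tag and RNA-seq libraries of mouse liver were used. Reads of the chromatin assays were trimmed (Trimmomatic 0.39), aligned to mm10 with HISAT2, and called by the authors with MACS2 2.2.7.1, or with SICER2 for Lamin A/C and H4K20Me3. RNA-seq reads were cleaned with PRINSEQ and aligned to mm10 with HISAT2. The submitters' processing notes also name deepTools 3.3.2. Each condition has 1 deposited list, in which the fold enrichment (a ratio to background), the −log10 p and q, and the score of an island or peak are values of the authors' callers. The RNA tables hold deposited raw counts and normalised counts per gene. The authors' own fold changes, p-values and FDR in these tables were not used, nor were 114 other per-library columns.

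Regions of different lists were paired if they shared 1 bp or more. Transcript starts are those of GENCODE M21. The members, motifs and gene lists were chosen with earlier results of these data known. Motifs were searched on both strands of the central 300 bases with pysam 0.24.0, and CTCF and p53 allowed 1 mismatch. Besides those spelled out above, the letters were TGACGTCA (CRE, which shares TGA and TCA with AP-1), CCAAT (NF-Y), TTGGCGC (E2F), CATTCC (TEAD), TGTGGTT (RUNX), TGACNNNGC (NRF2, which can overlap AP-1) and GAGGAAGT (PU.1, which can overlap ETS). NRF1, NF-kB, HNF1, IRF, CAR/RXR, p53 and CTCF have longer motifs and are given by name.

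The quasi-likelihood test of edgeR 4.0.16 (R 4.3.3) was run on raw counts after filterByExpr (minimum count 10), with the authors' factor per library (normalised over raw count) as scaling and Benjamini-Hochberg adjustment for 55450 tests, the genes of the annotation. Of the listed genes 3888 of 3900 and 716 of 719 matched the annotation, and 3723 and 679 were tested. Raw counts over the listed genes summed to 5734065 to 8231255 in Setd8-LKO and 11238950 to 12780869 in untreated WT libraries in one table, and to 2609310 to 3706582 and 1389901 to 1849046 in WT + TCPOBOP and untreated WT libraries in the other. These sums are not the library depths, which are not known here. The script was tested on simulated data. Named genes were, for each link, the 10 largest rises and 5 largest falls among called genes with no overlap between groups, the genes with the most gained regions (all 9 with 4 regions), and list members with a gained promoter region. Other list members were named after their values were seen. The labels number the libraries of a group without naming animals, so p-values measure the spread between these libraries. Alternatives were other overlaps, distances, windows, scalings (DESeq2 1.42.0, TMM), filters, the run named in the column headers as a term, a replicate block, and leaving out each library.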

Additional observations from a re-analysis of the deposited data

Results flagged for a closer look

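Of 111 groups of 4 or 5 libraries examined for the named genes, 7 held a library far from the others, and chance alone flags about 1 group in 20. Of the 7, 3 are in the third Setd8-LKO library: Gdf15 at 3791 normalised counts (others 2081 to 2318), Slco1a1 at 1045 (286 to 385) and Ccl2 at 17 (36 to 38). Clcf1 was at 647 in the fourth Setd8-LKO library (835 to 865), and Aox3 at 1440 in the second (833 to 928). Gstm3 was at 45592 in the fourth WT + TCPOBOP library (21647 to 25856). Mki67 was at 64 in the fifth untreated WT library (13 to 26). All 7 genes kept their direction without the library concerned.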

How the results depend on the processing

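The number of gained regions stayed between 2483 and 5005 under all 5 other rules. The promoter share of 15.8% became 11.2% with 500 bp, 23.1% with 2000 bp, 9.74% with protein-coding transcripts only and 13.2% with −log10 p of at least 20. If a peak had to cover 50% of the region, H3K27ac overlapped 7.59% (Setd8-LKO list) and 5.51% (WT), CTCF 4.05% and 2.08%, and Smc3 6.70% (Setd8-LKO). With a peak within 500 bp these were 25.6% and 18.5% for H3K27ac, 7.03% for CTCF (Setd8-LKO), and 10.0% and 8.07% for Smc3, and without members within 500 bp of a WT region H3K27ac gave 13.8% and 9.30%. The AP-1 share was 14.9% in 200 bases and 16.6% in whole regions, against 7.36% and 11.1% of kept regions. Of 20 other motif shares 13 and 12 moved beyond their intervals, 18 of 20 downward in each setting.

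In Setd8-LKO + TCPOBOP, DESeq2 size factors gave 51 promoter and 87 distal genes higher, and 30 with H3K27ac in the Setd8-LKO list only, and a distal link of 10 kb gave 115. Leaving out 1 library gave 82 to 89 promoter genes higher and 31 to 36 lower, 156 to 187 and 92 to 118 distal, and 42 to 47 and 6 to 8 with H3K27ac in the Setd8-LKO list only. In WT + TCPOBOP the promoter counts were 10 higher and 8 lower with DESeq2 size factors, 10 and 8 with TMM (median shift -1.25), 6 lower with the DESeq2 test, 9 lower when adjusted over the listed genes alone and 5 lower with run as a term. The distal counts were 18 and 18, 17 and 19, 18 lower and 19 lower in the first 4 of these, and 44 and 4 with a link of 10 kb. Leaving out 1 library gave 26 to 30 and 1 to 3 promoter genes and 59 to 69 and 6 to 10 distal genes.

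Same-numbered libraries did not deviate together (r from -0.149 to 0.068 in Setd8-LKO + TCPOBOP and -0.434 to 0.114 in WT + TCPOBOP). The fits above use no pairing. These few values, some between libraries of different runs, cannot exclude one. The replicate block gave 71 promoter genes higher and 28 lower and 134 and 89 distal in Setd8-LKO + TCPOBOP, and 13 and 0 and 39 and 3 in WT + TCPOBOP. Of the named genes, only Ephx1 changed sign, to -0.02 in WT + TCPOBOP under TMM. In Setd8-LKO + TCPOBOP 633 of their values kept their call, 22 lost it and 1 gained it, and in WT + TCPOBOP 383, 39 and 17. The nearest protein-coding start (210 and 129 distal genes) and H3K27ac within 500 bp (57 and 10) were chosen after seeing the data and moved no count by over 1.5 times. Where a count moved, the cause was not tested, and with 1 list per condition the error of the region shares is not known.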
